A study of Mus musculus with 2 samples.

Results

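The enzymes that make, attach and remove sialic acid, start mucin-type O-glycans and finish the outer ends of glycan chains were followed in the mouse uterus before implantation. They were taken by gene symbol, as the sialyltransferase (St3gal, St6gal, St8sia), Galnt, B3gnt, B3galt, B4galt, Gcnt, Fut and Mgat families, the sialidases Neu1 to Neu4, and Npl, Gne, Nans, Cmas and C1galt1. The rule found 81 of the 14678 genes in the table, and it used no measured value. Uteri were taken at gestation day 2.5, and the genotype in both groups was VEGFtetO/tetO/beta-AKtg/wt. Dox+ mice ate chow with doxycycline and kept VEGF expression (VEGF-normal), and Dox− mice, their adult littermates, ate chow without it (VEGF-repression). Total RNA of 3 uteri was pooled for each group and sequenced as 1 library, so a difference between the libraries has no replicate check. All mice carried tet operators in both copies of the VEGF promoter and a tetR-Krab repressor driven by the β-actin promoter, which is active in most tissues. Repression was thus not limited to the uterus, and the presence of doxycycline itself cannot be told apart from the level of VEGF.

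Sialic acid is an acidic sugar that caps glycoproteins and glycolipids at the cell surface. It is made in the cytosol from UDP-GlcNAc by Gne and Nans, is activated by Cmas, and is then placed on galactose or GalNAc by sialyltransferases in the Golgi. Mucin-type O-glycans are started by the Galnt enzymes, which attach GalNAc to serine or threonine, and are extended by C1galt1 and the Gcnt, B3gnt and B4galt enzymes, while the Mgat enzymes set the number of branches of N-glycans. In the uterus these sugars cover the luminal epithelium, whose mucin coat is known to change around the time the embryo attaches.

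A gene's copy number is its number of tags in a library. Values are given as copies and compared as copies per 1000000 clean tags (TPM), with 5985925 clean tags in Dox+ and 5844314 in Dox−, the sizes implied by the deposited values. A gene was compared by the fold of 1.5 when it had at least 200 copies in both libraries combined. Intervals are exact Clopper-Pearson intervals at 95%, which treat tags as independent draws and cover counting error only, since 1 pool was counted per group. Tags are not independent molecules, so the intervals may be too narrow even for counting error. Copies are not divided by transcript length, so their order among genes is an order of tags and not of transcript levels. Vegfa, the repressed gene, had 247 copies in Dox+ and 125 in Dox−, 1.93-fold lower (1.55 to 2.41).

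Cell type markers also differed between the libraries, and their part in the results below was not tested. The 4 uterus markers had 6545 summed copies in Dox+ and 3358 in Dox−, with Hoxa10 and Hoxa11 lower and Esr1 and Pgr higher. The 8 epithelial markers had 7237 and 8935 summed copies. Of these, Krt8, Krt18, Krt19 and Cdh1 were within the fold of 1.5, Epcam and Cldn7 were higher and Cldn3 and Cldn4 lower in Dox−. Summed copies went from 289 to 168 for 2 of 4 gland markers, from 6686 to 6295 for 5 of 5 stroma markers, from 25783 to 16470 for 5 of 5 smooth muscle markers and from 894 to 601 for 5 of 5 endothelial markers. They went from 287 to 537 for 7 of 7 leukocyte markers, from 163 to 82 for 2 of 3 adipocyte markers and from 26 to 114 for Hba-a1, the 1 of 2 erythrocyte markers measured. The near-even stroma sum held members apart. Hand2 was 6.73-fold and Vim 1.52-fold lower, Lum was 1.84-fold higher, and Pdgfra and Dcn were within the fold of 1.5. Of the 2 endothelial markers with at least 200 combined copies, Cdh5 was 2.02-fold lower and Pecam1 was within the fold. The oviduct marker Ovgp1 had 25 copies in Dox+ and 2 in Dox−, and Star, the 1 of 4 ovary markers measured, had 12 and 13. No measured marker was at 0 in either library. In a whole organ, fewer cells of a type and less RNA per cell cannot be told apart.

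In 4 of the 12 roles at least 1 enzyme was higher and at least 1 lower in Dox− by the fold of 1.5. They were the α2,3- and α2,6-sialyltransferases, the Galnt enzymes of mucin-type O-glycans and the fucosyltransferases. Among all genes with at least 200 combined copies, 29.9% were past this fold in either direction, and among the 36 enzymes with as many, 41.7%. How many roles would hold both directions among genes taken at random was not worked out. The α2,8-sialyltransferases and β1,3-galactosyltransferases had 0 enzymes with as many copies and the sialidases 1, so these roles could not qualify. The fucosyltransferases had 2, Fut8 at 1.54-fold lower and Fut11 at 1.57-fold higher, and Fut8 was inside the fold with counted tags as library sizes. Together the 81 genes had 11921 copies in Dox+ and 10845 in Dox−, 1992 and 1856 TPM, a ratio of 0.932. Without Npl the ratio was 0.966, beside 0.974 for the sum of all genes of the table. Of the 81, 36 had at least 200 combined copies, 25 had 20 or more and under 200 and 20 had fewer. Among the 36, 7 were higher in Dox− by the fold of 1.5 (19.4%), where 15.2% of the 6547 genes of the table with as many copies were, and 8 were lower (22.2%), where 14.7% of those genes were. For 36 genes these shares are near those of all genes. The median log2 ratio, Dox− over Dox+, was -0.07 for the 36 enzymes and 0.03 for all 6547 genes. The 7 higher enzymes were St3gal4, St3gal5, St6gal1, Galnt4, Galnt7, B3gnt9-ps and Fut11, and the 8 lower were Npl, St3gal1, St3gal3, St6galnac6, Galntl4, Gcnt2, Gcnt3 and Fut8. The 95% intervals of all 15 lay apart from a ratio of 1. Past a fold of 2 were Npl, St3gal1 and Galntl4, all lower in Dox−, beside 5.62% of all genes lower and 4.61% higher at that fold.

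**Figure D1:**
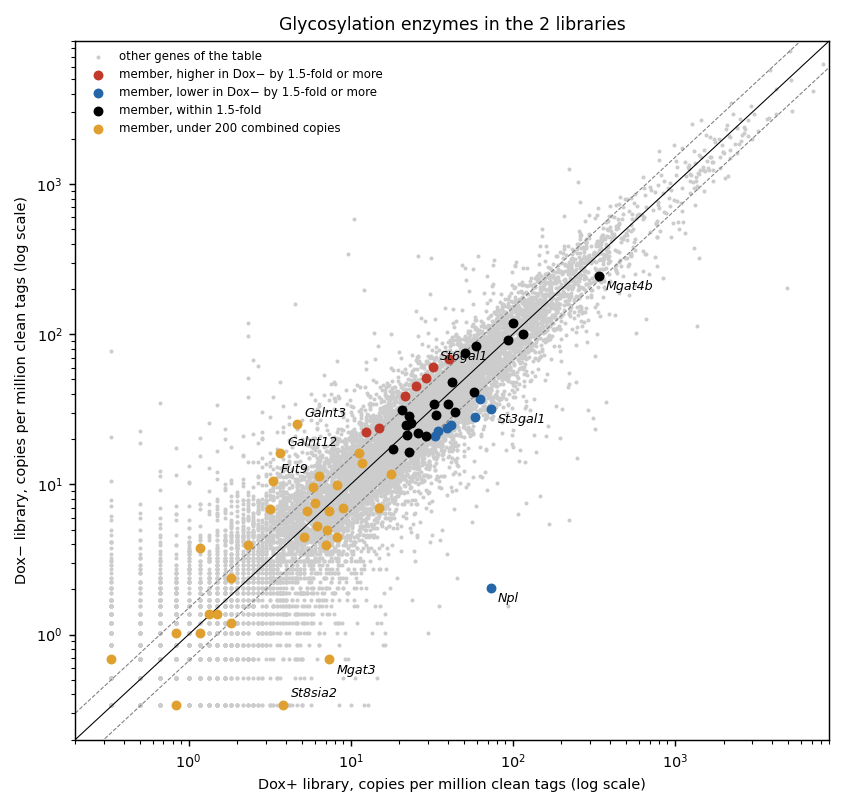
TPM (copies per 1000000 clean tags) of each gene in the Dox+ library (x axis, log scale) and the Dox− library (y axis, log scale), for genes with a tag in both. Grey points are the other genes of the table, large points the glycosylation enzymes (red higher, blue lower by 1.5-fold or more, black within it, orange under 200 combined copies), the solid line is equality and the dashed lines mark 1.5-fold; Npl lies far below the line, at 73.3 and 2.05 TPM, and 21 black points lie between the dashed lines.

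**Figure D2:**
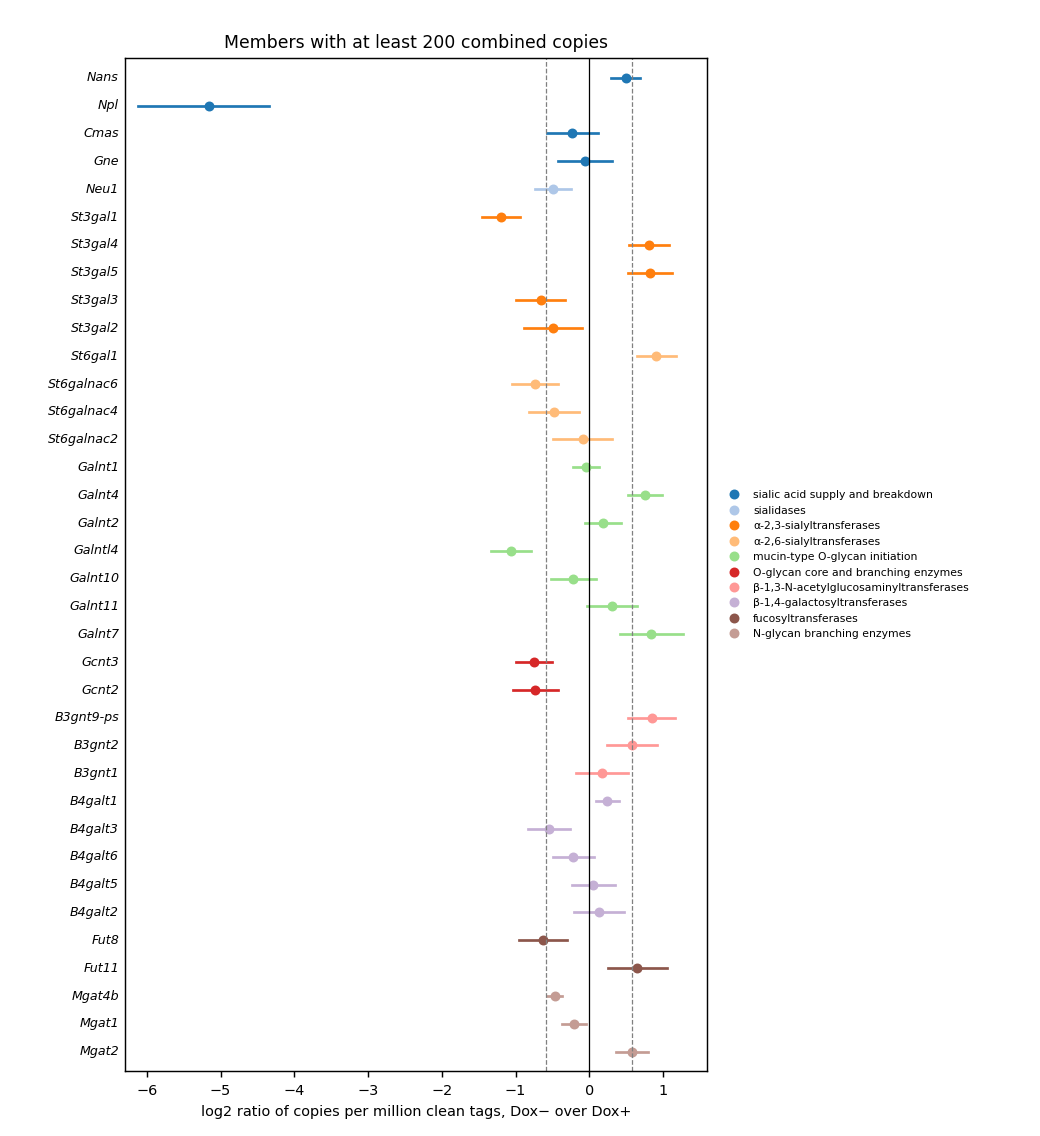
Log2 ratio of TPM, Dox− over Dox+ (x axis), of the 36 enzymes with at least 200 combined copies, in order of role. Points are ratios, bars are 95% exact counting intervals, and dashed lines mark 1.5-fold; 7 points lie past the right line and 8 past the left, and Npl at -5.16 stands apart from the others.

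Within the supply and breakdown of sialic acid, the lyase had very few tags in Dox−, while the synthetic enzymes were within the fold of 1.5. Npl (chromosome 1, 155350146 to 155396844, minus strand, NCBIM37), the lyase that splits free sialic acid into N-acetylmannosamine and pyruvate, had 439 copies in Dox+ and 12 in Dox−. It was 35.7-fold lower (20.2 to 69.7), the largest fold of the 36 enzymes. Nans (chromosome 4, 46502120 to 46516504), which condenses N-acetylmannosamine 6-phosphate with phosphoenolpyruvate, had 356 and 489 copies and was 1.41-fold higher (1.22 to 1.62), short of the fold of 1.5. Its exons share 1356 bases with Trim14 on the opposite strand. Cmas, which makes CMP-sialic acid, had 155 and 129 copies, a ratio of 0.852 (0.670 to 1.08). Gne, the epimerase and kinase that opens the pathway, had 133 and 125 copies, a ratio of 0.963 (0.748 to 1.24). The intervals of Cmas and Gne hold a ratio of 1, so no difference was detectable at these counts. Npl made up 40.5% (37.6 to 43.5) of the copies of these 4 genes in Dox+ and 1.59% (0.824 to 2.76) in Dox−, and Nans 32.9% and 64.8%.

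The 250 bases upstream of the Npl start site are shown because Npl had the largest fold of the list. They are from RefSeq on GRCm38.p6, chr1:153549715-153549964, minus strand, and are printed 5′ to 3′ with the letters ACGTG, the core of the hypoxia response element, in capitals on either strand. The window held 2 such stretches, one of them inside the palindrome CACGTG, which is also an E-box.

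Npl: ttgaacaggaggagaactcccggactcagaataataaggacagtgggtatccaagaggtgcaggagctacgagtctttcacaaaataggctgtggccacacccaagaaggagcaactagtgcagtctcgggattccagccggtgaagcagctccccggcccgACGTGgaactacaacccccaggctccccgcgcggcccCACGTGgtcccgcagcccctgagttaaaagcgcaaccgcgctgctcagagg

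The sialidases, which remove sialic acid from glycans, had few tags apart from Neu1. Neu1 (chromosome 17, 35068198 to 35072898), the lysosomal sialidase, had 347 copies in Dox+ and 241 in Dox−, 1.41-fold lower (1.19 to 1.66). Neu3, a plasma membrane enzyme that acts on gangliosides, had 37 and 31 copies, and Neu2 had 2 and 0. Neu4 was not analysed here. Ctsa, the protective protein that holds Neu1 in its lysosomal complex, had 758 and 494 copies, a ratio of 0.668 (0.595 to 0.749) that lies just inside the fold of 1.5. It was named after its values were seen.

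The α2,3-sialyltransferases as a group differed little, with 1134 copies in Dox+ and 1007 in Dox−, but their make-up was different. St3gal1 (chromosome 15, 66934437 to 66945922, minus strand), which caps the galactose of core 1 O-glycans, had 438 and 187 copies, 2.29-fold lower (1.92 to 2.73). St3gal4 (chromosome 9, 34854164 to 34924395, minus strand), which caps lactosamine ends and takes part in making selectin ligands, had 175 and 299 copies, 1.75-fold higher (1.45 to 2.12). St3gal5 (chromosome 6, 72047607 to 72104564), the synthase of ganglioside GM3, had 152 and 263 copies, 1.77-fold higher (1.45 to 2.18). The intervals of St3gal4 and St3gal5 overlap almost wholly, and neither overlaps that of St3gal1.

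St3gal3 (chromosome 4, 117604759 to 117807519, minus strand), a further lactosamine enzyme, had 199 and 123 copies, 1.58-fold lower (1.26 to 1.99). St3gal2, which acts on the same disaccharide as St3gal1 and on gangliosides, had 138 and 96 copies, 1.40-fold lower (1.07 to 1.84). St3gal1 and St3gal2 together had 576 and 283 copies, 1.99-fold lower (1.72 to 2.30). St3gal6 had 32 and 39 copies, a difference within counting error. As shares of the family, St3gal1 made up 38.6% (35.8 to 41.5) of its copies in Dox+ and 18.6% (16.2 to 21.1) in Dox−. St3gal4 made up 15.4% (13.4 to 17.7) and 29.7% (26.9 to 32.6), so the member with the most tags was St3gal1 in Dox+ and St3gal4 in Dox−. In Dox− the interval of St3gal4 overlaps that of St3gal5, at 26.1% (23.4 to 28.9). These shares compare genes within 1 library and do not depend on the scaling of the libraries.

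St3gal3 and St3gal5 are shown as sister genes of which one was lower and one higher in Dox−, with the 250 bases upstream of their start sites from RefSeq on GRCm38.p6. The windows are chr4:118134947-118135196, minus strand, and chr6:72097358-72097607, plus strand, and capitals mark the GC box GGGCGG on either strand. Each window held 2 GC boxes and no ACGTG.

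St3gal3: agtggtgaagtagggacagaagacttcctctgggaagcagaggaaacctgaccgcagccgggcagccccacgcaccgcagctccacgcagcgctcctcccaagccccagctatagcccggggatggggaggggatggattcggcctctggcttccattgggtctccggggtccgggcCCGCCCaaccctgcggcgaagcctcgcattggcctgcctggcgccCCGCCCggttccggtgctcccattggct
St3gal5: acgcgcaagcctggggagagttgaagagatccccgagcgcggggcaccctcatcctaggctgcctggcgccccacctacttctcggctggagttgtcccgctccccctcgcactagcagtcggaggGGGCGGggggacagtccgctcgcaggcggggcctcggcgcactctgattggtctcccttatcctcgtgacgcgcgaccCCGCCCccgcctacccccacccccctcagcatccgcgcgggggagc

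The α2,6-sialyltransferases had an even total, 727 copies in Dox+ and 730 in Dox−, a ratio of 1.03 (0.927 to 1.14), with members apart. St6gal1 (chromosome 16, 23224813 to 23360421), which caps the lactosamine ends of N-glycans, had 192 and 352 copies, 1.88-fold higher (1.57 to 2.25). It was the one enzyme of the 36 whose interval lay wholly above a fold of 1.5. St6galnac6 (chromosome 2, 32455229 to 32476326), which adds sialic acid to the GalNAc or GlcNAc of gangliosides and other glycans, had 237 and 139 copies, 1.66-fold lower (1.34 to 2.07). Its neighbour on the chromosome, St6galnac4 (32442615 to 32455218), had 174 and 122 copies, 1.39-fold lower (1.10 to 1.77). St6galnac2, an enzyme of O-glycans, had 110 and 101 copies, a ratio of 0.940 (0.711 to 1.24) that holds 1. St6galnac3 had 11 and 14 copies, and St6galnac1 and St6galnac5 had at most 3 in either library. St6gal1 went from 26.4% (23.2 to 29.8) of the copies of this family in Dox+ to 48.2% (44.5 to 51.9) in Dox−, and St6galnac6 from 32.6% to 19.0%. Exons of St3gal4 and St6gal1 share 83 and 200 bases with genes on the opposite strand, and the strand of the deposited counts is not given in the sources used here.

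The α2,8-sialyltransferases, which build chains of sialic acid, had few tags, 59 in Dox+ and 33 in Dox−. St8sia2, one of the makers of polysialic acid on neural cell adhesion molecule, had 23 and 2 copies, 11.2-fold lower with a wide interval (2.77 to 98.2). The other polysialic acid enzyme, St8sia4, had 31 and 26 copies. St8sia6 had 5 and 2 copies, and St8sia1 had 0 and 3. St8sia2 was named after its values were seen, because it lies outside the minimum of 200 copies.

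The Galnt enzymes, grouped here as those that start mucin-type O-glycans, took more tags in Dox−, 2150 against 1905 in Dox+. Their sum was 1.16-fold higher (1.09 to 1.23). Galnt1, with the most tags of the family, had 560 and 531 copies, a ratio of 0.971 (0.861 to 1.10). Galnt2 had 254 and 282 copies and shares 3854 exon bases with Gm20388 on the same strand. Galnt2, Galnt10 and Galnt11 also had intervals that hold 1. Galnt4 (chromosome 10, 98570793 to 98575881), which prefers peptides that already carry GalNAc, had 242 and 399 copies, 1.69-fold higher (1.44 to 1.99). Galnt7 (chromosome 8, 60002625 to 60131829, minus strand), another enzyme of that kind, had 75 and 131 copies, 1.79-fold higher (1.34 to 2.41). Galntl4, now named Galnt18 (chromosome 7, 118615175 to 118923491, minus strand), went the other way, with 352 and 165 copies, 2.08-fold lower (1.73 to 2.52).

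Under 200 combined copies, Galnt3 and Galnt12 had the largest ratios upward with tags in both libraries, and they were named after their values were seen. Galnt3 (chromosome 2, 65920823 to 65963051, minus strand), an epithelial enzyme known for protecting the hormone FGF23 from cleavage, had 28 copies in Dox+ and 147 in Dox−, 5.38-fold higher (3.57 to 8.37). Galnt12 (chromosome 4, 47104781 to 47135942) had 22 and 94 copies, 4.38-fold higher (2.73 to 7.31). Galnt3 and Galnt12 made up 1.47% and 1.15% of the family's copies in Dox+ and 6.84% and 4.37% in Dox−, with intervals that do not overlap between the libraries. The epithelial markers also differed between the libraries, with log2 ratios from -1.55 (Cldn3) to 1.40 (Cldn7), and their part in these values was not tested. Galnt13, Galnt9 and Galnt14 had no tag in Dox+ and 13, 9 and 6 in Dox−. A count of 0 allows up to 3 copies, so their folds are not given. Galnt5, with 3 and 0 copies, allows no fold, and Galnt6, Galntl2 and Galntl1 differed by less than counting error.

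Galnt3 is shown because of the size of its ratio, with the 250 bases upstream of its start site on GRCm38.p6, chr2:66124794-66125043, minus strand, from RefSeq. Capitals mark GC boxes, of which the window held 3, and 76.8% of its bases were G or C.

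Galnt3: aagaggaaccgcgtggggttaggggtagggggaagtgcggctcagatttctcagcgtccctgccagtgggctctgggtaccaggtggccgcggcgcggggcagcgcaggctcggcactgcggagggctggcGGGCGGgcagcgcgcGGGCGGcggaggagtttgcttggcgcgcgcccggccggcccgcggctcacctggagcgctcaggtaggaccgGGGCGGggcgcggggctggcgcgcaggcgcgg

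Core and branching enzymes of O-glycans had 780 copies in Dox+ and 491 in Dox−, 1.55-fold lower (1.38 to 1.74), while the sum of the Galnt enzymes was higher. Gcnt3 (chromosome 9, 69879303 to 69885895, minus strand), the mucin-type enzyme that makes core 2 and core 4 branches, had 374 copies in Dox+ and 218 in Dox−, 1.68-fold lower (1.41 to 1.99). Gcnt2 (chromosome 13, 40955501 to 41056260), which branches lactosamine chains into the I antigen, had 248 and 146 copies, 1.66-fold lower (1.35 to 2.05). Gcnt1, the other core 2 enzyme, had 107 and 69 copies, 1.51-fold lower (1.11 to 2.08), under the minimum of 200 copies. The intervals of these 3 enzymes overlap, and each lies below a ratio of 1. C1galt1, which makes core 1, had 49 and 58 copies, a ratio of 1.21 (0.814 to 1.81) that holds 1. Its chaperone C1galt1c1 had 32 and 61 copies, 1.95-fold higher (1.25 to 3.10), and was named after its values were seen. Gcnt4 had 2 copies in Dox+ and 0 in Dox−. Gcnt2 shares 482 exon bases with a gene on the opposite strand.

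Among the β1,3-N-acetylglucosaminyltransferases, which extend chains by GlcNAc, 3 had at least 200 combined copies and 1 was past the fold. B3gnt9-ps (chromosome 8, 107776538 to 107779053, minus strand), named B3gnt9 and listed as protein coding by RefSeq, had 130 copies in Dox+ and 228 in Dox−, 1.80-fold higher (1.44 to 2.25), and shares 416 exon bases with a gene on the opposite strand. B3gnt2, the main maker of poly-lactosamine, had 125 and 182 copies, 1.49-fold higher (1.18 to 1.89), just inside the fold of 1.5. Its exons share 2449 bases with Commd1 on the same strand, so tags there may belong to either gene. B3gnt1, now named B4gat1 and known to act on α-dystroglycan rather than on lactosamine, had 132 and 145 copies.

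Among the members with fewer tags, B3gnt3, which extends core 1, had 19 and 40 copies, 2.16-fold higher (1.22 to 3.94). B3gnt4 had 7 and 22 copies, 3.22-fold higher (1.33 to 8.92), and shares 1326 exon bases with Diablo on the opposite strand. B3gnt5, which starts lacto-series glycolipids, had 49 and 26 copies, 1.84-fold lower (1.12 to 3.08), and B3gnt7, an enzyme of keratan sulfate, had 42 and 23, 1.78-fold lower (1.05 to 3.11). B3gnt8 and B3gntl1 had 54 and 41 copies and 43 and 29 copies, with intervals that hold 1. The family held members on both sides of a ratio of 1, and its sum was 1.25-fold higher in Dox− (1.12 to 1.40).

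The β1,4-galactosyltransferases had 1542 copies in Dox+ and 1559 in Dox−, and 5 of 5 members of at least 200 copies were inside the fold of 1.5, where 4592 of the 6547 genes of the table were. B4galt1 (chromosome 4, 40751635 to 40801038, minus strand), the main galactosyltransferase of N-glycans, had 599 and 693 copies, 1.18-fold higher (1.06 to 1.32). B4galt3 had 264 and 177 copies, 1.46-fold lower (1.20 to 1.77), and shares 791 exon bases with Ppox on the opposite strand. B4galt5 and B4galt6, the lactosylceramide synthases, had 197 and 200 copies and 238 and 200 copies, and the intervals of both hold a ratio of 1. B4galt2, with 141 and 151 copies, also differed by less than counting error and shares 1417 exon bases with Ccdc24 on the same strand. B4galt4 had 67 and 94 copies, 1.44-fold higher, and B4galt7, of the glycosaminoglycan linker, had 36 and 44.

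None of the β1,3-galactosyltransferase rows reached 200 combined copies, and together they had 123 copies in Dox+ and 155 in Dox−. B3galt6, which builds the linker of glycosaminoglycans, had 70 and 81 copies. B3galtl, now named B3glct and known to place glucose on O-fucose, had 35 and 56 copies, 1.64-fold higher (1.06 to 2.58). B3galt4, an enzyme of ganglioside synthesis, had 8 copies in each library, and B3galt1, B3galt2 and B3galt5 had at most 6 in either.

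Fucosyltransferases had 462 copies in Dox+ and 421 in Dox−, and again a steady sum covered members that went opposite ways. Fut8 (chromosome 12, 78340052 to 78577325), which adds the core fucose of N-glycans, had 208 and 132 copies, 1.54-fold lower (1.23 to 1.93). With counted tags as library sizes it was inside the fold of 1.5. Fut11 (chromosome 14, 21514190 to 21519419) had 90 and 138 copies, 1.57-fold higher (1.20 to 2.07). Fut10 had 89 and 41 copies, 2.12-fold lower (1.45 to 3.15). Fut9, which makes the Lewis X epitope and was named after its values were seen, had 20 and 62 copies, 3.18-fold higher (1.89 to 5.55), and went from 4.33% (2.66 to 6.61) of the family's copies in Dox+ to 14.7% (11.5 to 18.5) in Dox−. Fut2, which makes the H antigen of secretions, had 44 and 39 copies, a ratio of 0.908 (0.574 to 1.43). Fut4 had 11 and 7 copies, and Fut4-ps1 had 0 and 2.

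N-glycan branching enzymes held the most tags of the roles, 3119 in Dox+ and 2536 in Dox−, and Mgat4b alone gave 65.2% and 56.6% of them. Mgat4b (chromosome 11, 50024392 to 50048605), which adds a branch to the first arm of complex N-glycans, had 2034 and 1435 copies, 1.38-fold lower (1.29 to 1.48). Mgat1 (chromosome 11, 49057693 to 49076532), which opens the way to hybrid and complex N-glycans, had 696 and 589 copies, 1.15-fold lower (1.03 to 1.29). Mgat2 (chromosome 12, 70285145 to 70287759), which starts the other arm, had 302 and 439 copies, 1.49-fold higher (1.28 to 1.73). The 3 enzymes lay inside the fold of 1.5, with intervals apart from a ratio of 1 and with Mgat2 opposite in direction to the others.

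Mgat3, which adds the bisecting GlcNAc, had 44 copies in Dox+ and 4 in Dox−, 10.7-fold lower (3.91 to 41.2), and was named after its values were seen. Mgat4a, the sister enzyme of Mgat4b, had 38 and 67 copies, 1.81-fold higher (1.20 to 2.76). Mgat5, which adds the β1,6 branch, went from 5 copies in Dox+ to 0 in Dox−, and Mgat4c had 0 and 2. The intervals of Mgat5 and Mgat4c hold a ratio of 1.

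**Figure D3:**
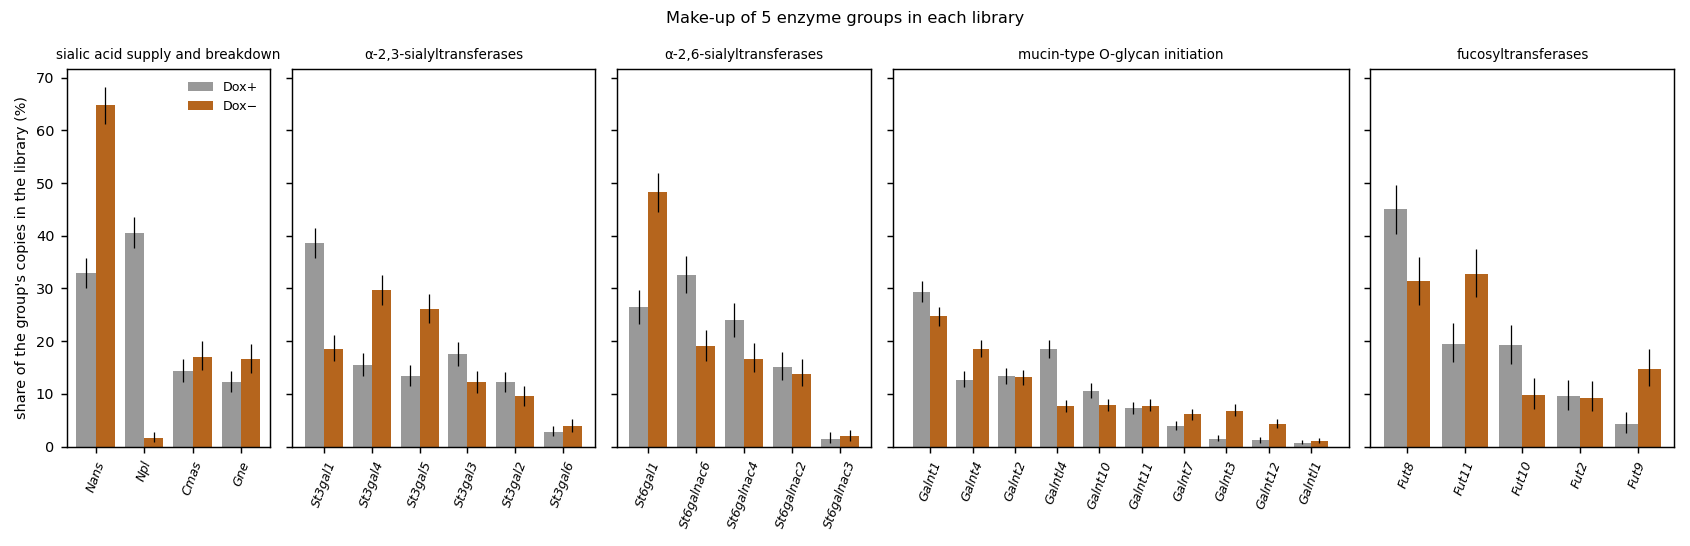
Share of each enzyme in the copies of its group (y axis, %), in the Dox+ (grey) and Dox− (brown) libraries, for 5 groups and their members with at least 20 combined copies. Bars start at 0 and error bars are 95% exact binomial intervals; Npl went from 40.5% to 1.59% of its group, St3gal1 from 38.6% to 18.6%, and St6gal1 went from 26.4% to 48.2%.

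Of the 25 enzymes with 20 or more and under 200 combined copies, 8 had an interval wholly above a ratio of 1 and 6 wholly below it, and 11 intervals held 1. Among all 5532 genes of the table with as many copies, 21.1% had an interval above 1 and 20% below. The 8 were Galnt3, Galnt12, B3gnt3, B3gnt4, B3galtl, B4galt4, Fut9 and Mgat4a, and the 6 were St8sia2, Gcnt1, B3gnt5, B3gnt7, Fut10 and Mgat3. These intervals take counting error as the sole error, and the spread between pools was not measured. Of the 20 enzymes with fewer copies, 9 had 3 or fewer in both libraries, so that no fold was taken.

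**Figure D4:**
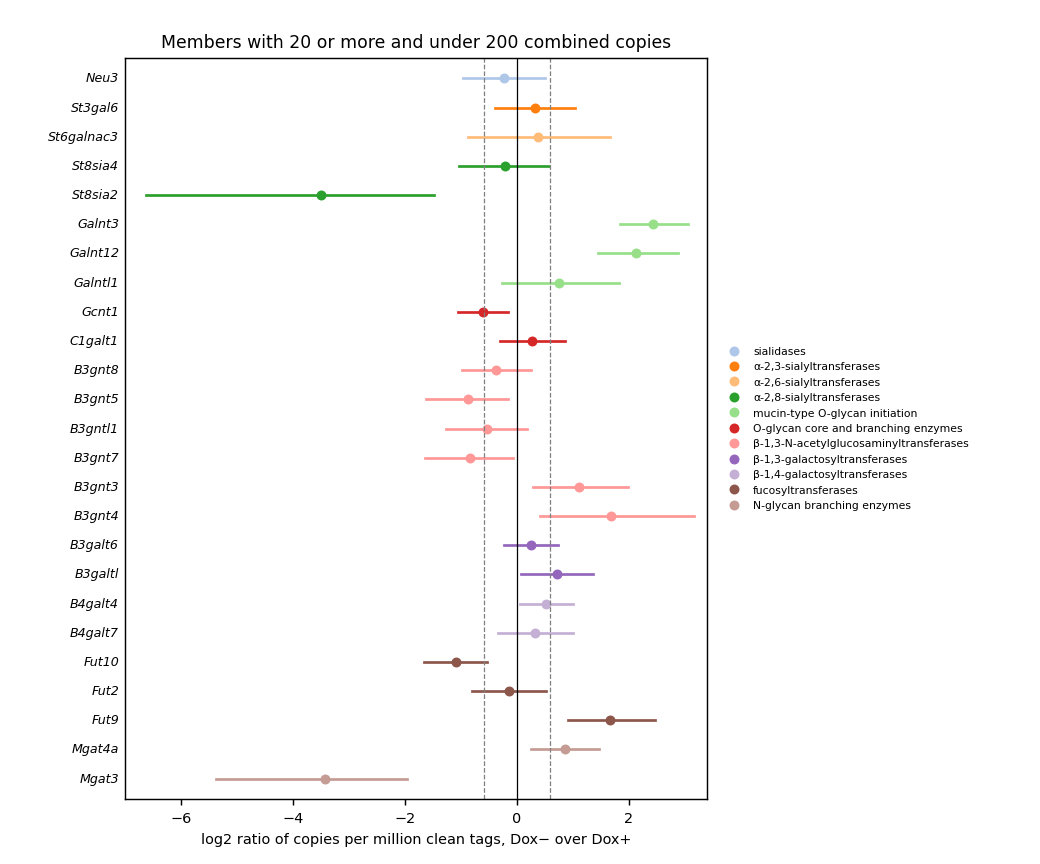
Log2 ratio of TPM, Dox− over Dox+ (x axis), of the 25 enzymes with 20 or more and under 200 combined copies, in order of role. Points are ratios, bars are 95% exact counting intervals and dashed lines mark 1.5-fold; Galnt3 and Galnt12 lie at 2.43 and 2.13, and Mgat3 and St8sia2 are the farthest to the left, with wide intervals.

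Of the 81 enzymes, 61 had 1 or more promoter windows in the RefSeq table, 89 windows in all. Over the 250 bases upstream, the median share of G and C was 59.6% in these windows and 52.4% in all 32851. Searched on both strands, the GC box GGGCGG stood in 41 of the 89 windows (46.1%) and in 32.7% of all, and the TATA box TATAAA in 3 (3.37%) and in 12.4% of all. The hypoxia core ACGTG stood in 17 windows (19.1%, against 16.6% of all) and its variant GCGTG in 35 (39.3%, against 28.2%). The full estrogen response element, a pair of facing half-sites 3 bases apart, was in 0 of the 89 windows and in 0.0639% of all, and its half-site GGTCA, which lies within it, in 23 (25.8%, against 35.2%). The receptor half-site TGTTCT was in 15.7% (16.1% of all), the E-box CANNTG in 65.2% (66.2%), GATAA in 19.1% (22.6%) and CCAAT in 31.5% (33.8%). ACGTG is part of an E-box where it is preceded by C. A match is a description of these letters, and several windows belong to the same gene.

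The genes that supply the sugars and carry the glycans were followed with 6 written lists. Of 35 listed genes of sugar nucleotide supply and transport, 21 had at least 200 combined copies, and of these 8 were higher and 2 lower in Dox−, with a median log2 ratio of 0.33. Among all genes with as many copies 15.2% were higher and 14.7% lower, which is the background for each list. Gmppb, of GDP-mannose synthesis, had 157 copies in Dox+ and 414 in Dox−, 2.70-fold higher (2.24 to 3.27). Slc35a2, the Golgi transporter of UDP-galactose, had 63 and 163 copies, 2.65-fold higher (1.97 to 3.60). Gmds and Tsta3, the consecutive enzymes that turn GDP-mannose into GDP-fucose, were 2.51-fold (1.89 to 3.37) and 2.25-fold (1.77 to 2.88) higher.

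Slc35c1, the Golgi transporter of GDP-fucose, had 195 and 354 copies, 1.86-fold higher (1.56 to 2.23). Fuk, of the salvage route to GDP-fucose, had 111 and 66 copies, 1.64-fold lower (1.20 to 2.26), under the minimum of 200. Along the hexosamine pathway that ends in UDP-GlcNAc, Gfpt1 was 1.92-fold higher, Gnpnat1 2.08-fold and Uap1 1.59-fold. Under the minimum of 200, Pgm3 was 1.52-fold higher (1.10 to 2.12). Gfpt2, with 29 and 15 copies, and Uap1l1, with 70 and 85, were also under it and had intervals that hold a ratio of 1. The lower genes were Gnpda1, which returns glucosamine 6-phosphate to glycolysis, 2.24-fold (1.76 to 2.86), and Mpi, of mannose 6-phosphate, 1.64-fold (1.35 to 2.01). Slc35a1, the transporter of CMP-sialic acid, had 268 and 211 copies, 1.24-fold lower (1.03 to 1.49). Slc35c1, Gfpt1, Uap1, Pgm3, Gfpt2, Uap1l1, Fuk and Slc35a1 were named after their values were seen.

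Mucins and sialomucins, the proteins that carry many of these glycans, held the widest ratios of the lists among genes with at least 200 combined copies. Of 28 listed genes 19 were in the table and 9 had at least 200 combined copies, of which 4 were higher and 2 lower. Cd24a, a small protein with dense O-glycans, had 1333 copies in Dox+ and 7341 in Dox−, 5.64-fold higher (5.32 to 5.98). Muc4 and Muc1, mucins of the cell membrane, were 4.19-fold (3.19 to 5.57) and 2.56-fold (2.21 to 2.97) higher, and Cd164 1.62-fold (1.49 to 1.77). The podocalyxin genes went the other way, Podxl2 with 236 and 50 copies, 4.61-fold lower (3.38 to 6.38), and Podxl 2.46-fold lower (2.01 to 3.03).

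In the list of other glycosyltransferases and glycosidases, 4 of 21 genes were higher and 3 lower. Higher were Man1a and Mogs, which trim N-glycans, 2.19-fold and 2.15-fold, Ugcg, which makes glucosylceramide, 1.79-fold, and B4galnt1, which makes the gangliosides GM2 and GD2, 1.59-fold. B3galnt1 and A4galt, of the globoside series, were 2.05-fold and 1.69-fold lower, and B3galnt2 was 1.57-fold lower. Of 11 lysosomal and other exoglycosidases, 1 was higher and 2 were lower. Mgea5, the O-GlcNAcase, was 1.62-fold higher, and among the lower genes Manba, the lysosomal β-mannosidase, was 1.78-fold lower.

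Of 7 lectins that bind sialic acid or other sugars, Lman1, a cargo receptor of the secretory pathway, was 1.94-fold higher (1.61 to 2.35), Mrc1, the macrophage mannose receptor, 1.51-fold higher (1.24 to 1.86) and Lgals8 1.77-fold lower (1.48 to 2.13). With TMM or median ratio scaling in place of the clean tags Mrc1 was inside the fold of 1.5. The summed copies of the leukocyte markers were also higher in Dox−. Only 1 of the 7 had the 200 combined copies needed to be compared by the fold of 1.5, and it was inside that fold. The part of the leukocyte markers in the value of Mrc1 was not tested. Of 5 sulfotransferase and sulfate supply genes, Chst11, of chondroitin, was 2.05-fold higher (1.73 to 2.45) and Chst14, of dermatan, 2.71-fold lower (2.17 to 3.41). Over the 6 lists 20 genes were higher and 11 lower, out of the 21, 21, 11, 9, 7 and 5 with at least 200 copies.

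**Figure D5:**
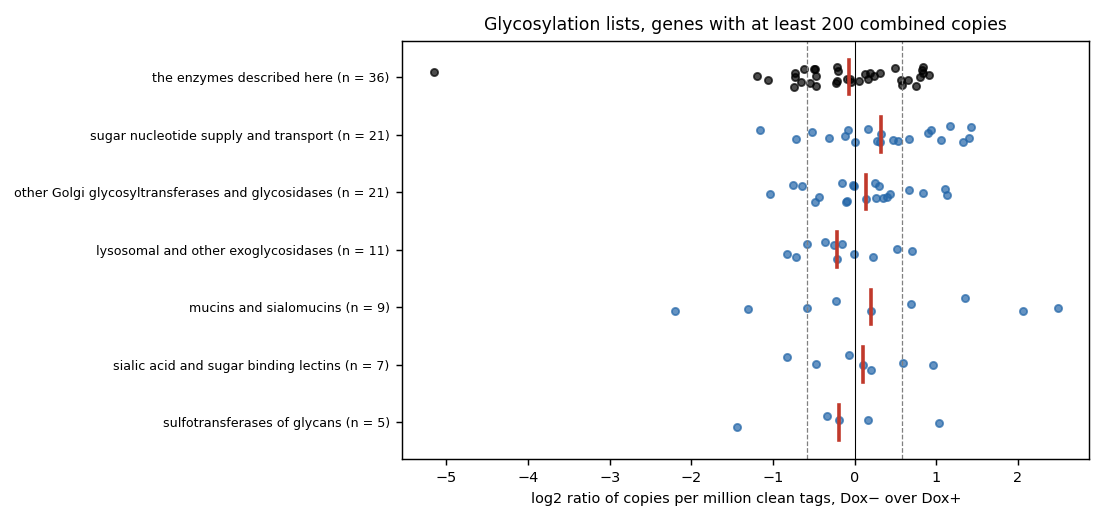
Log2 ratio of TPM, Dox− over Dox+ (x axis), of genes with at least 200 combined copies, for the enzymes described here (black) and 6 related lists (blue). Each point is a gene, red bars are medians, vertical scatter within a list has no meaning and dashed lines mark 1.5-fold; sugar nucleotide supply has a median of 0.33 and the enzymes described here one of -0.07.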

How the data were processed

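Tags of 1 Dox+ and 1 Dox− library, each from the pooled RNA of 3 uteri, were analysed. The authors removed adaptor-only, low quality and single-copy tags, matched clean tags to mm9 reference mRNAs and deposited unambiguous tags per gene as counts. The TPM columns hold, as computed by the authors, copies per 1000000 clean tags without length correction. The deposited log2 ratios, ratios, P-values and FDR are the authors' own comparison and were not used. CASAVA is named in the submitters' processing notes, and the aligner, the restriction enzyme and the strand of the counts are not given in the sources used here. The labels mention fragmented mRNA and the methods tag profiling, which was not resolved.

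Library sizes were recovered as the whole number at which every count gives its TPM. The libraries hold 4437506 and 4218459 counted tags. Folds are ratios of TPM, a count of 0 is read as up to 3 copies, and intervals are exact Clopper-Pearson intervals. Since each condition is 1 library, conditions were not tested against each other and no p-value is given. The genes named are the enzymes past the fold of 1.5, the 3 with the most copies per role, those at 0 in 1 library and over 3 in the other, up to 5 genes per list and direction past the fold, and other enzymes and genes, most of them under 200 copies, named after their values were seen. One listed gene is not reported here by name. The members and lists were chosen with earlier results of these data known. Positions are from GENCODE on NCBIM37 (mm9), which matched 79 of 81 enzymes by symbol, and promoters from RefSeq on GRCm38.p6.

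Alternatives were other library scalings (TMM of edgeR 4.0.16, median ratio of DESeq2 1.42.0), copy minimums, folds, a pseudocount of 1 and the mean. Python 3.11.15, numpy 2.4.6, scipy 1.17.1, pandas 2.3.3, matplotlib 3.10.9 and R 4.3.3 were used.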

Additional observations from a re-analysis of the deposited data

How the results depend on the processing

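The counts of enzymes past the fold depended on the copy minimum and the fold rather than on the scaling. With a minimum of 20 combined copies 15 enzymes were higher and 14 lower in Dox− (24.6% and 23.0%, against 19.7% and 18.7% of all genes). With no minimum there were 18 and 17 (25.0% and 23.6%, against 20.9% and 20.6%), and with a minimum of 500 copies 2 and 3 (15.4% and 23.1%, against 13.6% and 13.8%). At a fold of 2 the counts were 0 and 3, and with the 95% interval wholly past a fold of 1.5 they were 1 and 3 (2.78% and 8.33%, against 7.21% and 7.87%). Over the 6 related lists, 38 genes were higher and 23 lower from 20 copies, 45 and 26 with no minimum, 9 and 1 from 500 copies, and 11 and 5 at a fold of 2. With the interval wholly past the fold of 1.5, 14 listed genes were higher and 5 lower. The number of listed genes compared at each copy minimum was not taken. The list counts at other copy minimums thus have no share to set beside those of all genes given above. The list counts at a fold of 2 and with the interval wholly past 1.5 changed only the fold. They are out of the 21, 21, 11, 9, 7 and 5 listed genes with at least 200 combined copies. At a fold of 2, 4.61% of all genes were higher and 5.62% lower. With the interval wholly past 1.5, 7.21% of all genes were higher and 7.87% lower. These alternatives admit more or fewer genes by construction. With counted tags as library sizes 9 enzymes were higher and 7 lower, the shared ones being 7 and 7, and TMM and median ratio scaling gave the main counts of 7 and 8. The log2 ratios of the 15 enzymes past the fold kept their sign and stayed inside their counting intervals in 60 of 60 values under 3 other scalings and a pseudocount. This outcome was close to fixed in advance, because a scaling shifts the log2 ratio of every gene by the same small amount. For Galnt4 the main value of 0.756 became 0.794, 0.732 and 0.721. A pseudocount of 1 changes little at 200 or more copies. The median of the enzymes ranged from -0.17 (the mean in its place) to 0.01 (from 100 copies). No paired analysis was possible because each group has 1 library. The variation between pools was not measured, and an enzyme with under 20 copies can be described only as seen or not seen at this depth.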
